A study of Caenorhabditis elegans with 2 samples.

Results

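Intronic calls on the autosomes were the 1192 calls, of 30000 in the list pooled over both replicates, that met a rule of rank and position. They were selected on the pooled signal value: the call had to stand among the 5000 strongest calls, on chromosomes I to V. Its summit, the base of highest signal, had to lie inside a protein-coding gene, in no annotated exon of any gene and over 500 bp from every protein-coding gene's 5′ end. Of the 5000 calls, 4099 were on an autosome, 2162 of these had the summit in a protein-coding gene, and 1409 of these were in no exon. Distance removed a further 217. The 1192 members lay in 972 host genes.

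The data came from chromatin immunoprecipitation with sequencing of ZK546.5, a protein of the nematode Caenorhabditis elegans, in whole third-stage (L3) larvae of mixed sex. The strain, OP231, has the genotype unc-119(ed3) III; wgIs231, and its integrated transgene encodes the protein fused at the C terminus to GFP-FLAG. There was 1 group of 2 biological replicates, both compared with the same control, and no group without the tag was analysed here. Each replicate and the pooled data had a list of 30000 calls with a signal value per call. No read counts were given, so the depth is unknown, and signal is used here to order calls and to compare replicates at the same call.

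Introns are the parts of a gene that are transcribed and then spliced out of the messenger RNA. In C. elegans most are short, and longer ones, often near the start of the gene, can hold enhancers, promoters of shorter transcripts and whole genes for small RNAs. A call inside an intron can therefore mark a regulatory element of the host gene or the start of an inner transcript or gene.

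Among the strongest members with GC-rich summits, some windows held repeated words of the GAGA kind. The following 101 bases are centred on the summits of 4 of the 20 strongest members, shown because they held 4 to 6 such words each, from RefSeq's genome of the ce11 assembly. Capitals mark GAGAGA and the word AGAGAC, then CGTCTC, and also ACGCAG or its neighbour word GACGCA, on either strand and with overlaps.
Y111B2A.12, chrIII:12612600-12612700, plus strand: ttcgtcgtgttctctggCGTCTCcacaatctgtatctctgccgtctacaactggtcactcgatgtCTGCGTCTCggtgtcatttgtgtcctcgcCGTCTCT
daf-5, chrII:14040373-14040473, plus strand: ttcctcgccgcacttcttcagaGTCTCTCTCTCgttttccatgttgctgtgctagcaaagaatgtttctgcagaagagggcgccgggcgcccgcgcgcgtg
zfp-1, chrIII:8795895-8795995, plus strand: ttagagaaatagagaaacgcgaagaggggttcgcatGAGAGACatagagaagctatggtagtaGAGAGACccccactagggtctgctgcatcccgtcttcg
spop-1, chrIII:10096724-10096824, plus strand: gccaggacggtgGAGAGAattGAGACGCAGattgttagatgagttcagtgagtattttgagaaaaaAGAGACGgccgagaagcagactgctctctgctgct

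Not every GC-rich window held them: those of pxn-1 and scc-2, also among the 20 strongest, had 0, and that of F58G1.7 had 1. The GC-rich windows of pbrm-1, ppfr-1, K11D2.4 and mef-2, of the same 20, are not described here, so these examples are no tally. Other strong members were AT-rich. The window of lin-24, with the highest signal among AT-rich members, and that of otub-4, the most AT-rich of the 20 strongest, had 0 such words and are shown for contrast.
lin-24, chrIV:12134331-12134431, plus strand: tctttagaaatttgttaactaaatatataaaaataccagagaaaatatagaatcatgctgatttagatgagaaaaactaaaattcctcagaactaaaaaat
otub-4, chrIV:3376627-3376727, plus strand: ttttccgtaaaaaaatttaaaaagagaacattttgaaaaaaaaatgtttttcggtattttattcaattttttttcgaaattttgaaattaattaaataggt

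Another kind of window lay just upstream of genes for piRNAs, small RNAs of the germline that are named 21U-RNAs in worms and whose genes sit in clusters on chromosome IV. These 3 windows are from the strongest members within 100 bp of a piRNA gene's 5′ end that held the word TGTTTCA. Capitals mark this word, a stretch of the motif known upstream of many piRNA genes, or its reverse complement TGAAACA.
Y64G10A.7, chrIV:14307180-14307280, plus strand: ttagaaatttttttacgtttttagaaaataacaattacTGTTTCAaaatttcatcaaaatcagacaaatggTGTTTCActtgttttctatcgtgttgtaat
eps-8, chrIV:14890536-14890636, plus strand: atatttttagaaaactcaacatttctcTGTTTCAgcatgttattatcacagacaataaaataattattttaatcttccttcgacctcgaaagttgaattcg
ugt-19, chrIV:6079306-6079406, plus strand: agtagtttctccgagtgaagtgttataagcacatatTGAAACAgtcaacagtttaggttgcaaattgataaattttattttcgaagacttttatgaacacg

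Intronic calls were scarce among the strongest calls and common further down. Of the 261 strongest calls, which are the submitters' thresholded set, 6 were members (2.30%, 95% interval 0.848 to 4.94%). The share was 11.7% at ranks 262 to 500, 18.6% at 501 to 1000, 23.6% at 1001 to 2000 and 28.1% at 2001 to 3000. It then stayed near that level, at 27.4% up to rank 5000 and 29.2% at ranks 20001 to 30000. For scale, bases that satisfy the same position rule, called eligible bases below, made up 23.7% of the nuclear genome, 23.7 Mb in all. All intervals are exact binomial (Clopper-Pearson) or Poisson intervals at 95% and cover counting error over calls only.

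**Figure D1:**
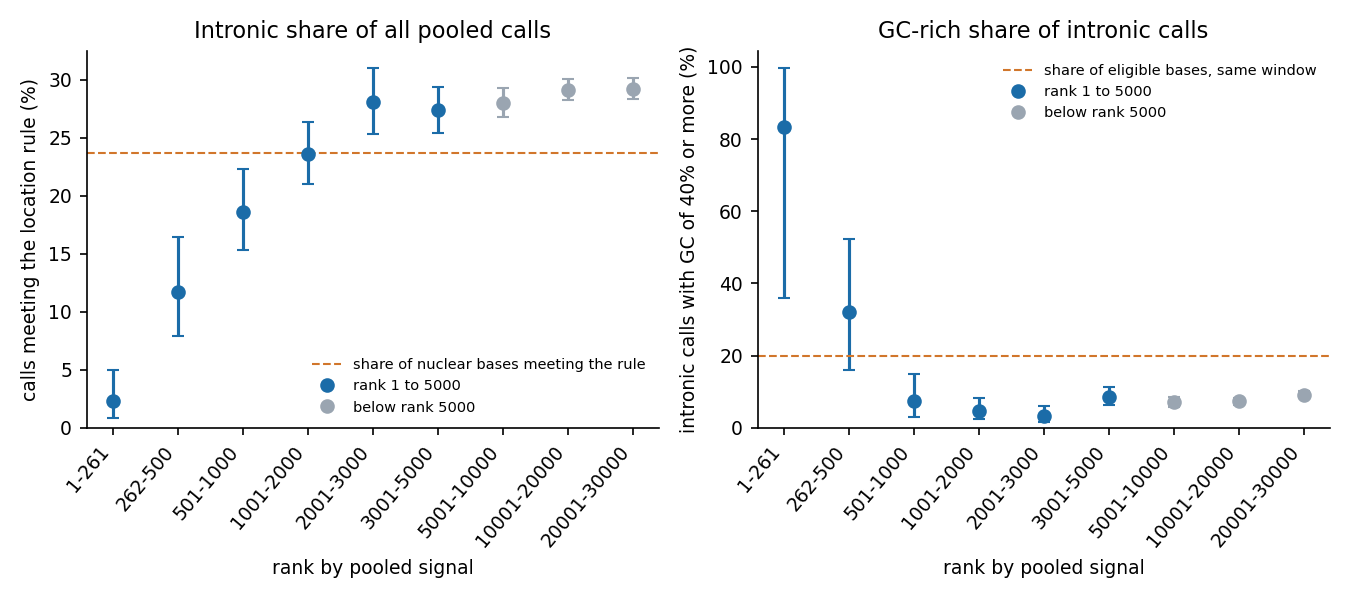
Left, share (%) of pooled calls that met the position rule in each rank range. Right, share (%) of those intronic calls with GC of 40% or more in 200 bp. Points are shares with exact 95% intervals, and dashed lines give the same share over nuclear bases (left, 23.7%) or over eligible bases (right, 19.7%). The intronic share is 2.30% in the first range and 28.1% at ranks 2001 to 3000, while the GC-rich share is 83.3% in the first range and 3.20% at ranks 2001 to 3000.

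Members were mostly weak calls, and so were the 5000 calls they came from. Their pooled signal ran from 23.6 to 79.6 with a median of 26.7, and 930 of them (78.0%) were under 30. The median over all 5000 calls was 27.3, so low signal was not particular to members. Autosomal calls within 500 bp of a coding 5′ end had a median of 28.97. Only 6 members (0.503%, interval 0.185 to 1.09%) belonged to the thresholded set, against 5.22% of all 5000 calls. The same share was 1.55% of exonic and 2.51% of intergenic autosomal calls away from 5′ ends, 0.766% of intronic calls on X (interval 0.0929 to 2.74%) and 12.8% of the 1230 autosomal calls within 500 bp of a coding 5′ end. Since that set was made from the same pooled list, these shares describe the choice of members and test nothing. The limits of the rule cut through a continuum of signal: the last member was in Y48E1B.3 at rank 5000 with 23.6, and the first intronic call outside was in unc-42 at rank 5010, also with 23.6. At the distance limit, a call in spp-19 at rank 560, with a signal of 38.1, lay exactly 500 bp from a coding 5′ end and was left out. The nearest one inside was in kri-1, at 502 bp, with a signal of 26.7.

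The strongest members were in genes of many kinds. The highest pooled signal, 79.6, was in intron 4 of 7 of Y111B2A.12 on chromosome III at 12612650 (ce11), with 49.7 in replicate 1 and 39.5 in replicate 2. The next was in intron 17 of 21 of pxn-1, a peroxidasin gene for an extracellular matrix enzyme, with a pooled signal of 68.5 and 38.7 and 31.7 in replicates 1 and 2. Both were high in both replicates.
The third was in the 14446 bp first intron of daf-5, a Ski/Sno family regulator in the TGF-beta pathway that controls dauer entry. Its pooled signal of 64.9 came with 15 in replicate 1 and 46.6 in replicate 2. In pbrm-1, a subunit of a SWI/SNF chromatin remodelling complex, the member at 58.2 had no call in replicate 1 and 31.7 in replicate 2. Both had a much higher value in replicate 2, or a call there alone.
In ppfr-1, a regulatory subunit of protein phosphatase 4, the pooled signal was 56.3, with 25.2 in replicate 1 and 34.3 in replicate 2. In lin-24, a gene known from mutants in which vulval precursor cells die, it was 53.7, with 23.1 and 16.5 in replicates 1 and 2. These 6 were the members in the thresholded set, and 5 of them had GC of 40% or more, lin-24 being the exception.

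Below them came scc-2, the cohesin loader, in the 8367 bp first intron, with a pooled signal of 49.8 and with 9.82 in replicate 1 and 36.5 in replicate 2. That ratio of replicate 2 to replicate 1, 3.72, was the highest of all members, and the summit lay 132 bp from the 5′ end of another transcript of the gene. The opposite end was tat-5, a phospholipid flippase gene, with 29.9 in replicate 1 and 6.46 in replicate 2. In zfp-1, the PHD-finger homologue of human AF10, the strongest of its members had 45.9 in the pooled list, with 12.4 and 39.3 in replicates 1 and 2. In mef-2, a MADS-box transcription factor gene, the pooled 45.9 came with 26.7 in replicate 1 and 16.0 in replicate 2. The other hosts of the 20 strongest members were K11D2.4, taf-6.2 (a TAF6-type subunit of the general transcription factor TFIID), aqp-12 (an aquaporin), atg-4.1 (an autophagy protease), F58G1.7, chs-2 (a chitin synthase), ero-1 (an oxidase of the endoplasmic reticulum), dhrr-1, Y64G10A.7, spop-1 and otub-4.

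The 20 strongest fell into 2 sorts by base composition, which the rule did not use. In 11 of them GC in the 200 bp around the summit was 44 to 60%, and in the other 9 it was 20.5 to 29.5%. Since the scale differs between lists, the ratio of replicate 2 to replicate 1 is best read against its median over members called in both, 0.734, and not against 1. It was above that median in 2 of the 9 AT-rich ones and in 8 of the 10 GC-rich ones called in both replicates. A call within 200 bp was present in both replicate lists for 19 of the 20. The examples of aqp-12, with 36.1 in replicate 1 and 8.88 in replicate 2, and K11D2.4, with 15.1 and 35.9, show both sorts.

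Over all members, GC averaged 29.1 ± 7.18% (SD over 1192 calls), against 29.9 ± 6.79% in the 7237 intronic calls below rank 5000. Windows centred on eligible bases averaged 33.6 ± 7.31%. Where the whole 200 bp window lay inside the intron, so that exons could not raise it, the mean was 28.4 ± 7.31% in 926 members, against 29.2 ± 6.99% in lower calls and 32.9 ± 7.69% at eligible bases. The members thus lay in sequence poorer in GC than introns at large, and so did the lower calls. GC of 40% or more was found in 88 members (7.38%), against 13.6% of all 5000 calls and 8.0% of lower intronic calls. Soft-masked repeat sequence took 56.3% of the members' windows, on average, and 57.8% of those of lower calls.

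GC richness fell with rank over all calls, from 36.8% with GC of 40% or more at ranks 262 to 500 to 9.75% at 3001 to 5000. Members had 32.1% and 8.58% (interval 6.37 to 11.2%) in these ranges, so the fall was not particular to them. At ranks 1 to 261 the members' interval, 35.9 to 99.6%, included the share of all calls. At ranks 2001 to 3000 members were lower, at 3.20% (interval 1.47 to 5.99%) against 8.8%. GC-rich members were thus most frequent in the first 500 ranks. They were 14 of the 34 members in the first 500 ranks, 7 of 93 at ranks 501 to 1000, 11 of 236 at 1001 to 2000, 9 of 281 at 2001 to 3000 and 47 of 548 at 3001 to 5000. Among the 34, the median ratio of replicate 2 to replicate 1 was 1.36 over the 13 GC-rich members called in both lists and 0.629 over the 18 others called in both. Replicate 2 was the higher one in 8 of those 13 and in 3 of those 18. Beyond the 20 strongest, GC-rich members named by their rank were in pqn-41 (ranks 384 and 388, GC of 55 and 56.5%), ints-8, an Integrator complex subunit (rank 440, 62.5%), and hlh-30, the TFEB homologue that drives autophagy genes (rank 631, 41.5%). They also lay in kin-1, the catalytic subunit of protein kinase A (rank 1118, 45.5%), and tra-1, the GLI-type regulator of sexual fate (rank 1483, 55%). These genes were picked after their values were seen.

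The words marked in the sequences above were commoner in GC-rich members than in GC-rich lower calls. They were chosen with earlier results of these data known, so the contrast is a description and gives no independent support. In the 100 bp around the summit, on either strand, GAGAGA was in 24 of the 88 GC-rich members (27.3%, interval 18.3 to 37.8%), against 9.67% of 579 GC-rich lower calls. AGAGAC, which can overlap GAGAGA, was in 23.9% against 5.87%, and CGTCTC in 21.6% against 6.04%. ACGCAG was in 13.6% against 3.11%, and GACGCA, which overlaps it, in 17.0% against 4.15%. Over all 1192 members the shares were low: 4.70% for GAGAGA, against 3.14% of lower calls and 4.77% of all 30000 calls, and 1.51% for ACGCAG, against 1.01% and 1.79%. TTAGGC, the telomere repeat, was in 3.10% of members and 3.21% of lower calls, and AAAAAA in 67.7% and 68.0%. CGAGAC was in 2.43% and 1.81%, ACCGTA in 2.60% and 2.83%, and TGACTCA in 0.503% and 0.608%. Not every word rose in the GC-rich sets. There CGAGAC was in 4.55% of members (interval 1.25 to 11.2%) and 3.11% of lower calls, and TTAGGC in 4.55% and 4.84%. The direction was opposite for ACCGTA, in 1.14% (interval 0.0288 to 6.17%) and 4.49%. AGAGAC and CGTCTC were added after words at members had been counted, as were TCCGGA (2.27% of members, 1.26% of lower calls) and AACAGT (8.39% and 4.81%).

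Replicate support was partial. A call within 200 bp of the member's summit was present in both replicate lists for 651 members (54.6%, interval 51.7 to 57.5%), against 58.2% of all 5000 calls. It was present in replicate 1 alone for 367, in replicate 2 alone for 156 and in neither for 18. Replicate 1 thus had a call at 85.4% of members and replicate 2 at 67.7%. For lower intronic calls both lists had one at 15.4%, and 2.62% of eligible bases lay that near to a call of each list. The pooled list was made from both replicates, so support from at least 1 of them was likely from the start. It was not certain, since 18.8% of lower intronic calls had a call in neither list.

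Support depended on rank. Both lists had a call for 31 of the 34 members in the first 500 ranks, namely 5 of 6 and 26 of 28, then for 66.7% at ranks 501 to 1000, 65.7% at 1001 to 2000, 54.4% at 2001 to 3000 and 45.6% at 3001 to 5000. Among all calls the share fell in the same way, from 95.0% at ranks 1 to 261 and 91.6% at 262 to 500. It was 75.8%, 63.8%, 51.3% and 45.7% in the later ranges. At ranks 501 to 1000 the members' interval, 56.1 to 76.1%, included the 75.8% of all calls. Support by strong calls was rare: 56 members (4.70%) had a call within 200 bp among the 5000 strongest of each replicate, against 13% of all 5000 calls. When the same rule was applied to each replicate's own list, replicate 1 gave 1113 intronic calls and replicate 2 gave 1066. Of these, 49 of replicate 1 (4.40%) lay within 200 bp of one of replicate 2, and 50 of replicate 2 (4.69%) within 200 bp of one of replicate 1. On the level of genes the overlap was wider, with 260 host genes in common, 28.5% of the 911 of replicate 1 and 29.1% of the 892 of replicate 2. Genes with much eligible intron were far more often hosts of members, so unrelated lists would also share hosts. The overlap to be had from unrelated lists was not worked out, for calls or for genes. Nor was the overlap between all of the 5000 strongest calls of each replicate, so the low overlap is not shown to be particular to intronic calls.

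The replicates also differed in what kind of intron sequence they called. GC averaged 28.6 ± 6.23% (SD over calls) in the intronic calls of replicate 1 and 32.4 ± 7.96% in those of replicate 2. GC of 40% or more was found in 5.03% of the calls of replicate 1 and 16.2% of those of replicate 2. At the 651 members called in both, signal had a median of 14.3 in replicate 1 and 10.4 in replicate 2, and the ratio of replicate 2 to replicate 1 had a median of 0.734, with quartiles of 0.518 and 1.03. That median was much the same in other distal classes, at 0.741 for exonic and 0.723 for intergenic autosomal calls and 0.714 for intronic calls on X, and was 0.940 for autosomal calls within 500 bp of a coding 5′ end. By base composition it was 0.668 for members under 25% GC, where replicate 2 was higher in 42 of 195, and 1.01 for those of 40% or more, where it was higher in 27 of 53. Over all 5000 calls the same classes had 0.668, with 117 of 512, and 1.18, with 295 of 475. Across the 651, Spearman's rank correlation of GC with that ratio was 0.15, and that between the replicates' signals was -0.23. The correlation with GC was 0.25 over the 2910 of all 5000 called in both lists. Over the 2259 of those that were not members it was 0.27, so this trend was not particular to members. Members were chosen on the pooled signal, which favours a high value in 1 replicate where the other is low, and all points share the same libraries. Whether base composition of the libraries, depth or binding set these differences was not tested.

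**Figure D2:**
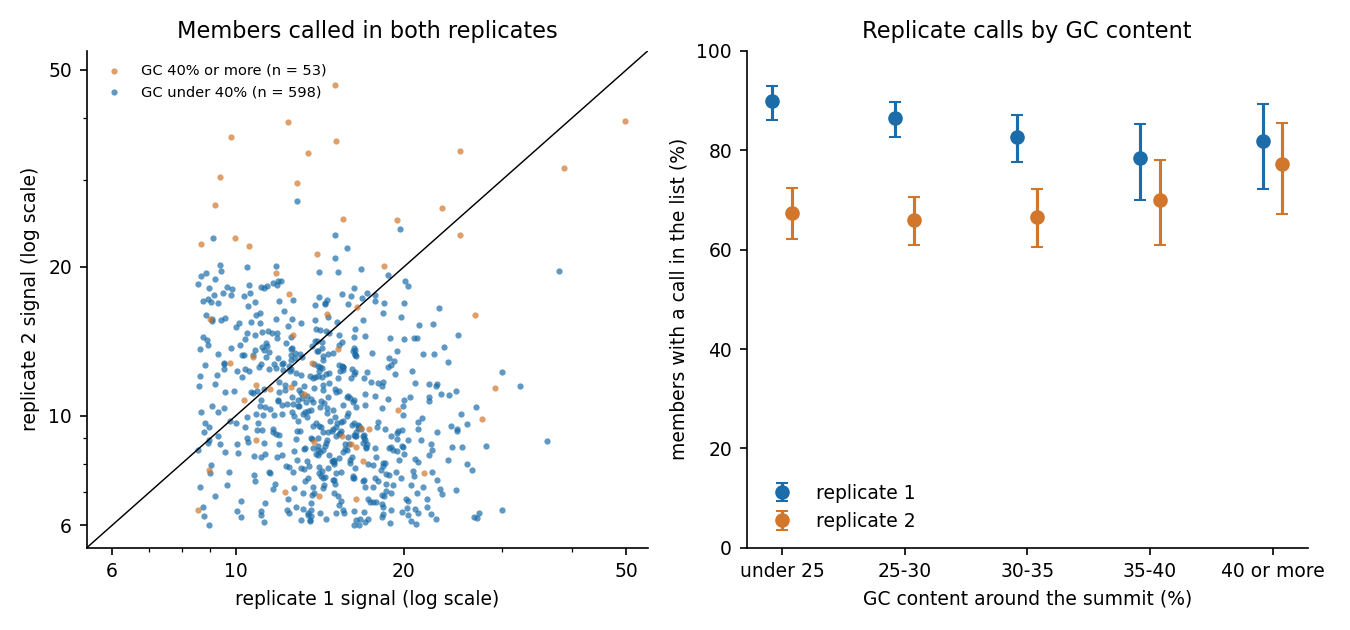
Left, signal in replicate 2 against replicate 1 (log axes) at the 651 members called in both lists, 53 of them with GC of 40% or more, with the line of equality. Right, share (%) of members with a call within 200 bp in each replicate list, by GC, with exact 95% intervals. Most points lie below the line, the highest replicate 2 values are GC-rich, and replicate 1 has a call at 89.8% of members under 25% GC, where replicate 2 has one at 67.4%.

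Members were somewhat more frequent in the middle of introns than eligible bases were, while any excess in first introns was small. First introns held 216 members (18.1%, interval 16.0 to 20.4%), against 16.2% of lower calls and 15.8% of eligible bases. That came to 57.6 members per Mb of eligible first intron (interval 50.2 to 65.8), against 50.2 over all introns and 46.3 to 54.4 in later ones. The interval thus just reached the overall value. With 1 call per intron the share was 16.9% (interval 14.7 to 19.2%), which included the 15.8%. On the list of replicate 1 alone it was 16.6% (interval 14.5 to 18.9%), and on that of replicate 2 alone 19.1% (interval 16.8 to 21.6%). Last introns held 17.3% of members, 16.7% of lower calls and 16.2% of eligible bases. The median member was in intron 4 and 3130 bp from the host's 5′ end, and the farthest was 47112 bp away, in afd-1. With introns divided into 5 equal pieces from the 5′ side, piece 1 held 12.8% of members (interval 11.0 to 14.9%), against 15.9% of lower calls and 17.7% of eligible bases, and piece 3 held 24.6% (interval 22.2 to 27.1%), against 22.1% and 20.3%. Since eligible bases near 5′ ends were removed by the rule, these shares apply to what was left.

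Introns with members had a median length of 979 bp, with quartiles of 526 and 2336 bp, against 949 bp for lower calls and 1002 bp at the median eligible base. Introns of up to 100 bp were under-represented for their bases, with 18.3 members per Mb (interval 12.6 to 25.7), while the 35.5 at 101 to 200 bp had an interval, 23.9 to 50.6, that included the overall value. Introns of 201 to 500 bp had 58.8 per Mb and those of 501 to 1000 bp had 59.1, the highest values, while those over 10000 bp had 41.5. Lower calls, at 305 per Mb over all introns, were likewise sparsest in introns of up to 100 bp, at 178. Their highest values were also at 201 to 500 bp (343) and 501 to 1000 bp (368), so these traits were not particular to members. Each member's interval was 344 bp wide.
By chromosome the density was 56.5 members per Mb on IV, 53.5 on I, 52 on III, 48.1 on II and 40.5 on V (interval 35.1 to 46.5). Chromosome V was the one whose interval lay below the overall 50.2. Lower calls were also sparsest on V, at 270 per Mb.

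**Figure D3:**
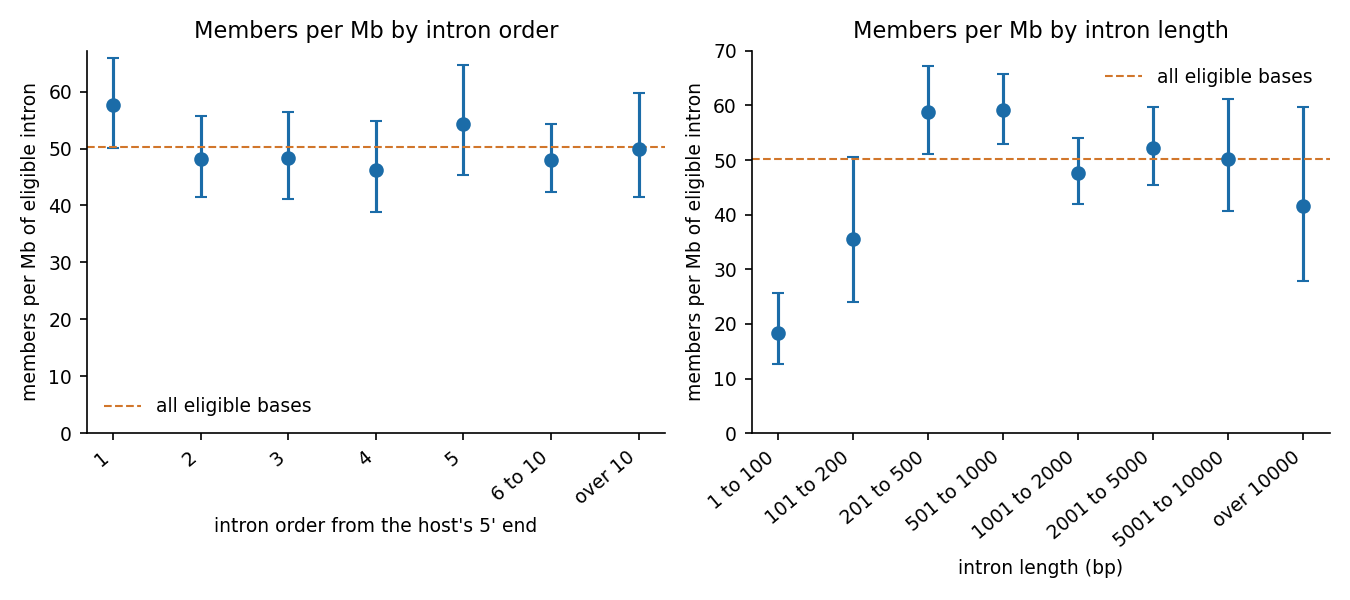
Members per Mb of eligible intron by intron order (left) and by intron length (right), with exact Poisson 95% intervals. The dashed line is the value over all eligible bases, 50.2. First introns stand at 57.6 and introns of up to 100 bp at 18.3.

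Some members lay near annotated starts of other transcripts, and whether transcription begins there was not tested. The rule excluded the 5′ ends of genes, not of every transcript. No farther than 500 bp from the annotated start of another protein-coding transcript were 132 members (11.1%, interval 9.35 to 13%). This compares with 9.80% of lower calls and 9.08% of eligible bases. Among GC-rich members it was 16 of 88 (18.2%, interval 10.8 to 27.8%). Examples were the member of nurf-1 at rank 784, 28 bp from such an end, with 27.6 in replicate 1 and 9.83 in replicate 2, and that of mnk-1 at rank 793, 50 bp away, with 17.6 in replicate 1 and no call in replicate 2.

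Non-coding genes inside or beside introns were near more members than eligible bases would give. A 5′ end of a non-coding RNA gene lay within 500 bp of 176 members (14.8%, interval 12.8 to 16.9%), against 10.4% of lower calls and 9.34% of eligible bases. For piRNA genes this was 114 members (9.56%, interval 7.95 to 11.4%), against 6.00% and 4.68%, and for other kinds 65 members (5.45%), against 4.66% of lower calls.

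The piRNA part lay almost wholly on chromosome IV, which holds 14714 of the 15363 annotated piRNA genes. Of the 275 members there, 73 (26.5%, interval 21.4 to 32.2%) lay within 100 bp of a piRNA gene's 5′ end, against 13.5% of 1538 lower calls (interval 11.8 to 15.3%) and 10.1% of eligible bases. Within 500 bp it was 39.3% of members, against 26.5% and 20.8%. By rank, the share within 100 bp was 2 of 21 members on IV in the first 1000 ranks (interval 1.17 to 30.4%), too few to set apart from the later ranges, 28.0% at ranks 1001 to 5000, 17.5% of intronic calls at 5001 to 10000 and 12.5% beyond.

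Of those 73 members, 51 (69.9%) had the summit upstream of the piRNA gene's 5′ end, against 136 of 207 lower calls (65.7%). The word TGTTTCA was in 27 of the 73 (37.0%, interval 26.0 to 49.1%) and in 6 of the 167 members on IV over 500 bp from any piRNA gene (3.59%). In lower calls the shares were alike, 36.7% of 207 and 3.36% of 1131. Off chromosome IV it was in 2.40% of members and 3.16% of lower calls. Over all 30000 calls, those on chromosome IV included, it was in 5.09%. Both replicate lists had a call at 40 of the 73 (54.8%), close to the 54.6% of all members. GC at these members averaged 25.2 ± 3.62% (SD), against 29.1 ± 5.84% in members on IV over 500 bp away. Eligible bases within 100 bp of a piRNA gene had 28.4% and the other eligible bases of IV 33.6%, so closeness to piRNA genes and AT content moved together and their parts were not tested separately.

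The strongest of the 73 was in intron 8 of 23 of Y64G10A.7, 32 bp upstream of 21ur-13862, with a pooled signal of 43.8 and with 29.9 and 12.3 in replicates 1 and 2. The next was in intron 3 of 8 of lgc-52, a ligand-gated ion channel gene, 28 bp from 21ur-8014, with 40.4 in the pooled list and 19.7 and 23.8 in replicates 1 and 2. In eps-8, a regulator of actin, the member had 17.7 in replicate 1 and 17.0 in replicate 2, and in ugt-19, a glucuronosyltransferase gene, 12.1 and 12.8. 

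**Figure D4:**
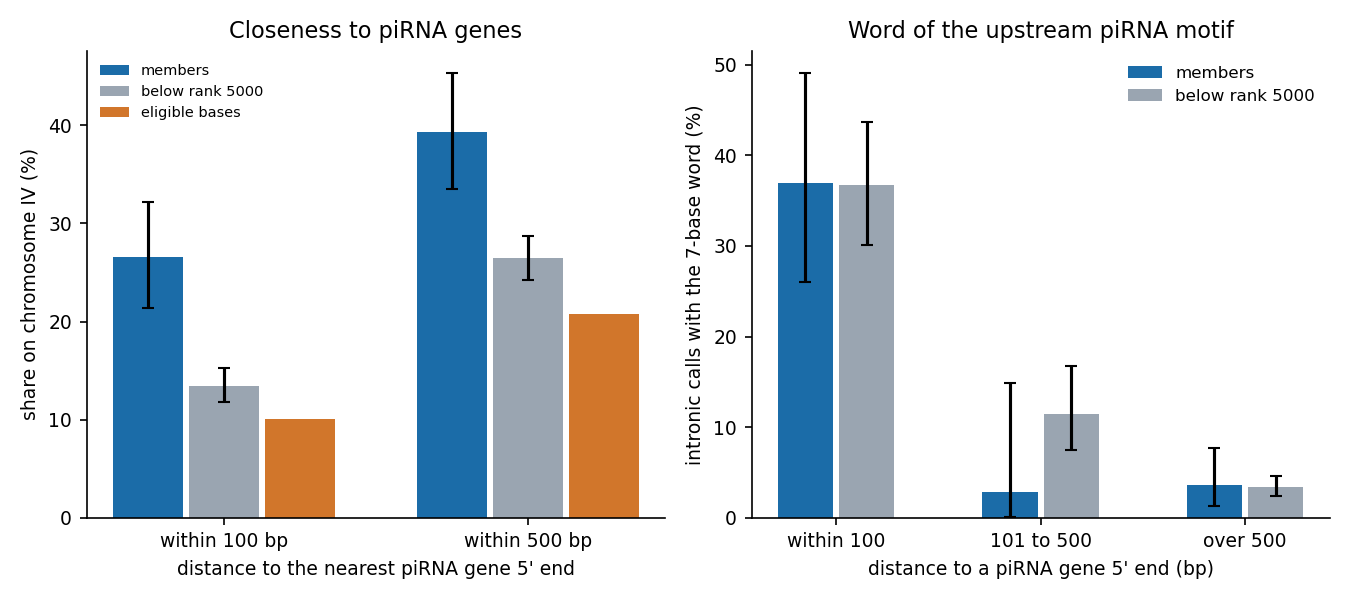
Left, share (%) of members, of intronic calls below rank 5000 and of eligible bases on chromosome IV within 100 or 500 bp of a piRNA gene's 5′ end. Right, share (%) of members and lower calls on IV that held TGTTTCA in 100 bp, by distance (bp) to a piRNA gene. Error bars are exact 95% intervals. Within 100 bp the shares on the left are 26.5%, 13.5% and 10.1%, and on the right 37.0% and 36.7%.

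Other non-coding genes had a 5′ end within 100 bp of 12 members, and 8 of these 12 were GC-rich. Of the 65 lower calls that near to such a gene, 25 were GC-rich. The pxn-1 member lay 26 bp from the snoRNA gene ZK994.7. The member in ints-8 lay 7 bp from rpr-1, the RNA subunit of RNase P, with a pooled signal of 40.8 and with 12.9 in replicate 1 and 29.6 in replicate 2. Members in rsa-2, lelo-2 and cye-1, the last a cyclin E gene, lay within 34 bp of tRNA genes. In rsa-2 there was no call in replicate 1 and 29.2 in replicate 2, in lelo-2 there were 9.98 and 22.9, and in cye-1 12.5 and 17.6. The member in plpr-1, 4 bp from the snoRNA gene T06D8.11, had 15.6 in replicate 1 and 25 in replicate 2. Over the 12, 10 were called in both lists and 6 of these had the higher value in replicate 2, against 3 of 14 in lower calls. The members in pxn-1, E01G4.3, egl-2 and acr-24 had the higher value in replicate 1, and that in nurf-1 was called there alone. The 12 were 1.01% of members (interval 0.521 to 1.75%), against 0.898% of lower calls, 65 of 7237.

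Host genes mostly held 1 member. Of the 972 hosts, 806 held 1, 128 held 2, 30 held 3 and 8 held 4 or more. By intron, 1139 introns held members and 47 of them held 2 or more. The chance of being a host went with the length open to the rule: 0.667% of genes with up to 500 eligible bases were hosts, 14.6% of those with 2000 to 5000 and 68.2% of those with over 20000. Per Mb the same classes had 31.1, 52.5 and 55.5 members. Over all 14590 genes with eligible bases, 6.66% were hosts.

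Of the hosts with the most members, 3 were in the piRNA clusters of chromosome IV. The gene kcc-2, for a potassium-chloride cotransporter, held 7 members in 5 of its 15 introns, all weak, with pooled signals of 24.3 to 27. All 7 lay within 237 bp of a piRNA gene, 4 of them within 100 bp, and 2 had a call in both replicates. Y105C5A.15 held 6, of which 5 were in its 14097 bp first intron, and all 6 lay within 73 bp of a piRNA gene. Y64G10A.7 held 4, all within 43 bp of one, and 3 of them were in both replicate lists.

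The other hosts with many members had no piRNA gene within 500 bp of one. In afd-1, the afadin homologue, none of the 6 members was in both lists, 3 being called in each replicate alone. In zfp-1, 5 members lay in 2 introns, 4 of them in both lists. Those 3 of them with GC of 50 to 53.5% had 17.3, 12.4 and 9.35 in replicate 1, and in the same order 9.40, 39.3 and 30.4 in replicate 2. The 2 AT-richer ones had 31.3 in replicate 1 with no call in replicate 2, and 10.8 in replicate 1 with 17.0 in replicate 2. Per Mb of eligible intron zfp-1 held 645 members, against 261 in kcc-2 and 139 in afd-1. Both mnk-1, a kinase gene of the MAP kinase pathway, and nurf-1, the BPTF-type subunit of a nucleosome remodeller, held 4 members.

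**Figure D5:**
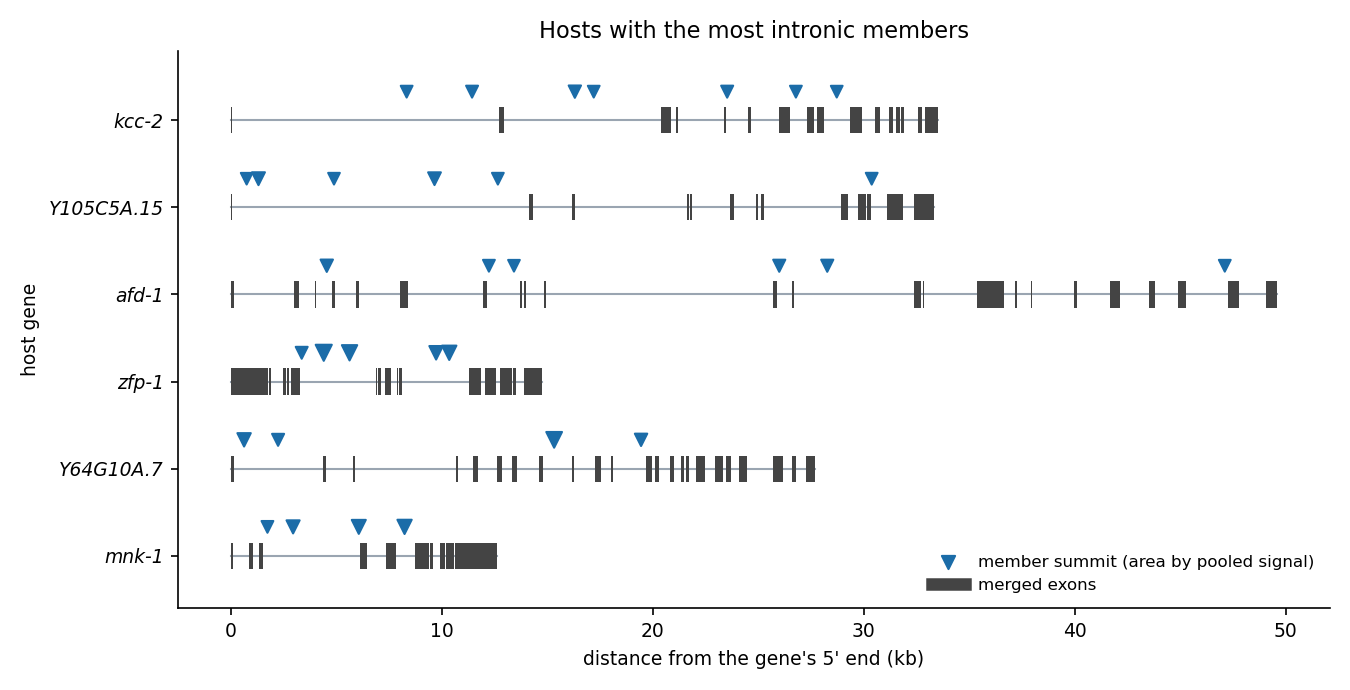
The first 6 hosts by number of members, with ties at 4 ordered by summed signal and 2 further hosts of 4 not drawn, shown from the 5′ end (left) to scale in kb. Dark blocks are merged exons, and triangles mark member summits with area by pooled signal. The 7 members of kcc-2 lie 8339 to 28722 bp from the 5′ end, 5 of the 6 of Y105C5A.15 lie in its first intron, and those of zfp-1 lie in 2 introns, 3365 to 10357 bp from the 5′ end.

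Gene groups were described by lists matched on symbols, set against 6.66% of genes being hosts and 50.2 members per Mb. Of 54 ion channel genes, 11 were hosts, with 17 members and 75.7 per Mb (interval 44.1 to 121). These included twk-42, a two-pore-domain potassium channel gene (15.9 and 16.8 in replicates 1 and 2), and unc-36, a calcium channel subunit gene (8.95 and 18.2). Of 74 neurotransmitter receptor genes, 9 were hosts, at 51.0 per Mb, among them lgc-52, the muscarinic receptor gene gar-3 and lgc-46. Of 21 axon guidance and adhesion genes, 8 were hosts at 38.1 per Mb, among them nrx-1 (neurexin; 15.5 and 17.6 in replicates 1 and 2) and the Eph receptor gene vab-1.

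Vesicle release genes held 6 members in 5 of 11 genes, at 62.9 per Mb, including unc-104, the kinesin that carries synaptic vesicles, and unc-13, needed for vesicle priming. Of 40 insulin and TGF-beta genes, 5 were hosts at 46.3 per Mb, led by daf-5 and by the insulin receptor gene daf-2, which had 24.5 in replicate 1 and no call in replicate 2. Of 28 guanylyl cyclase genes, 2 were hosts at 48.5 per Mb, a host share of 7.14%. The intervals of all these densities included 50.2.

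Among regulators, 15 of 245 nuclear hormone receptor genes were hosts, at 51.2 per Mb. The strongest was nhr-23, a receptor needed for moulting, with a pooled signal of 40.8 and with 20.3 and 18.3 in replicates 1 and 2. Homeobox genes had 5 hosts of 58, at 36.7 per Mb, led by lim-8, a LIM-domain gene matched by its symbol alone, and mec-3, which specifies touch neurons. Chromatin genes had 4 of 34, at 54 per Mb, among them the histone methyltransferase genes mes-4 and met-2.

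Muscle genes had 4 of 24, at 31.3 per Mb, including lev-11 (tropomyosin) and unc-22 (twitchin). The cuticle collagen list had 4 of 89, at 65.2 per Mb, 1 of which, dpy-21, is a histone demethylase gene matched by its symbol, beside col-111 and rol-1. Ribosomal protein genes had no host among 29 (interval up to 11.9%), with 0.00272 Mb of eligible bases between them. For these lists too the intervals of the densities included 50.2.

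One member lay in the gene that the strain's background mutation affects. In the first intron of unc-119, which is 3747 bp long, the member at rank 3332 had a pooled signal of 25.8, with 21.6 in replicate 1 and 13.3 in replicate 2 and GC of 19%. It was among the few intronic calls strong in both replicates. Copies of unc-119 are a usual marker in transgenes of this kind, and their number in wgIs231 is not given in the sources used here, so the part of copy number in this call was not tested. This gene was picked after its values were seen.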

How the data were processed

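Calls of ZK546.5 ChIP-seq in L3 larvae were taken from the deposited ce11 lists: 1 of each of the 2 biological replicates, 1 pooled and 1 thresholded. The signal value of each call is the deposited measure of the authors' peak caller and its scale differs between lists. Per the deposited file notes, each list was made from the alignments and 1 shared control, and the thresholded set from the pooled and replicate lists. The aligner, the caller, the antibody and the threshold are not given in the sources used here. Lists end at 30000 calls, so a call absent from a list may lie below its end.

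Genes and exons came from Ensembl release 115 (WBcel235, the same assembly as ce11) and bases from RefSeq. The host was the shortest protein-coding gene over the summit (16 members lay in several), and introns were the gaps between its merged exons. Eligible bases are all autosomal bases that satisfy the position rule. No test was made: the members were chosen on the pooled signal, and calls of 1 group of 2 replicates allow none. Members, lists and words were chosen with earlier results of these data known. Named genes are the hosts of the 20 strongest members, the 8 hosts with most members (1 of them is not reported here), the calls at the limits, up to 3 hosts per gene list and the 2 extreme replicate ratios. Other genes (GC-rich members beyond those, members at non-coding genes or near annotated starts of other transcripts, and unc-119) were picked after their values were seen. The rule was tested on simulated calls. Software was Python 3.11.15 with pandas 2.3.3, numpy 2.4.6 and scipy 1.17.1, and plots came from matplotlib 3.10.9. Coordinates are 1-based.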

Additional observations from a re-analysis of the deposited data

How the results depend on the processing

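Of 88 alternatives, 65 left a value within 1.5 times (counts), within its interval (shares, median length) or within 2.65 percentage points (GC). The other 23 moved it further, and reversal of a direction was not assessed. The 2.65 is the SD between the 2 replicate lists, so it cannot judge the GC of those lists. With a rank limit of 2500 there were 505 members in 457 hosts, replicate support was 65.3% and the thresholded share 1.19%. With a limit of 10000 there were 2593 in 1834 hosts and support was 41.9%. Read the other way, with the position rule first and then the 5000 strongest such calls, the rule gave 5000 members in 2976 hosts, support of 30.3%, a thresholded share of 0.120% and 12% near a non-coding 5′ end. A distance of 250 bp from 5′ ends put 22.9% in first introns, and 1000 bp put 13.6% there with a median intron of 1069 bp. With exons of protein-coding genes alone left out, 17.6% lay near a non-coding 5′ end, and with 250 or 1000 bp for nearness it was 11.0% or 22.1%. Support was 37.5% within 100 bp, 63.7% within 500 bp, 60.4% by any overlap and 4.70% among the 5000 strongest calls of each replicate.

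Without replicate 1 or 2, that is, on the list of the other one, members numbered 1066 to 1113, hosts 892 to 911, the first intron share was 16.6 to 19.1%, median length 948 to 984.5 bp, the thresholded share 0.359 to 0.563%, the non-coding share 13.1 to 14.3% and GC 28.6 to 32.4%. Host counts and the added words were alternatives chosen after seeing the data. The rule was not run on ce10. No paired analysis was possible because there was only 1 group. Depth is unknown, each list ends at 30000 calls, and with 2 replicates a call missing from 1 cannot be told from one just below its end.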
